A study of Mus musculus with 4 samples.

Results

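The 35 genes described here encode the transmembrane, plaque and scaffold proteins of tight junctions, the proteins of desmosomes, the apical and basal polarity complexes, and the cytoplasmic adherens junction proteins and nectins. They were chosen as a list of junction and polarity genes, with claudins and cadherins of the adherens junction left out. The list was made with earlier results of these data known, so it is not blind to the values below. All 35 were found among the 41128 gene identifiers of the deposited table, and all 35 passed the filter for comparison, 10 counts in any library, which left 21640 genes. The samples were liver cells of C57BL/6 mice with alcoholic hepatitis, induced by taking 40% of daily calories from a high cholesterol and fat diet and 60% as an alcohol liquid diet given into the stomach, with a weekly binge. All groups shared this treatment, and no untreated liver is in the comparisons. Collagenase digestion, removal of hepatocytes by slow centrifugation and magnetic depletion of CD45+ leukocytes gave the presorted CD45- cells. Sorting on Prom1 (CD133, a pentaspan membrane protein of ductal and progenitor-like epithelial cells), CD49f (integrin alpha 6) and CD45 then gave Prom1+CD49f+CD45- cells, Prom1-CD49f+CD45- cells and a population labelled Prom1+CD49f+CD45+. Each of the 4 populations had 1 library, made from the pooled RNA of 2 mice, so no difference below has a replicate check and no test was made.

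Tight junctions seal the space between neighbouring epithelial cells near their apical surface, and in bile ducts and bile canaliculi they keep bile apart from blood. Desmosomes anchor keratin filaments at cell contacts and give an epithelium mechanical strength. The PAR and Crumbs complexes mark the apical side and the junctional border of an epithelial cell, while the Scribble complex acts at the basolateral side. Endothelial cells also build tight and adherens junctions, with some of the same proteins, but have no classical desmosomes.

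Library totals were 14670239 to 52293939 counts, and the Prom1-CD49f+CD45- library was the shallowest. Levels are given as CPM scaled with TMM, the trimmed mean of M values, with exact 95% Poisson intervals, and ratios with exact 95% conditional binomial intervals. These intervals cover counting error only, and the protocol describes no molecular identifiers. Calls, higher or lower, needed the whole interval of a gene to lie beyond 2-fold. The population labelled Prom1+CD49f+CD45+ went against its label in Prom1, at 11.4 scaled CPM the lowest of the 4 libraries, against 67.1 in presorted cells. Its Ptprc, which encodes CD45, was at 14.5, below the 21.0 of presorted cells but above the 6.33 of Prom1+CD49f+CD45- cells and the 3.60 of Prom1-CD49f+CD45- cells. Its Itga6, which encodes CD49f, was the highest of the 4 libraries at 127, against 72.9 in Prom1+CD49f+CD45- cells, 50.5 in Prom1-CD49f+CD45- cells and 110.4 in presorted cells. Below it is given only as the library that carries this label. In the sorted CD45- populations Prom1 was 355 (Prom1+CD49f+CD45-) and 31.1 (Prom1-CD49f+CD45-), in the direction of the sort.

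Cell type markers differed between the libraries. The 10 cholangiocyte (bile duct epithelial) markers summed to 24364 scaled CPM in Prom1+CD49f+CD45- cells, 9335 in Prom1-CD49f+CD45- cells, 389 in the Prom1+CD49f+CD45+ labelled library and 3892 in presorted cells. The 10 endothelial markers summed to 110 in Prom1+CD49f+CD45- cells, 5009 in Prom1-CD49f+CD45- cells, 13593 in the Prom1+CD49f+CD45+ labelled library and 10276 in presorted cells, and the 10 hepatocyte markers to 10515 in Prom1+CD49f+CD45- cells, 6980 in Prom1-CD49f+CD45- cells, 845 in the Prom1+CD49f+CD45+ labelled library and 38881 in presorted cells. Trf (6408 and 3497) and Alb (3241 and 1265) made up most of the hepatocyte sums of Prom1+CD49f+CD45- and Prom1-CD49f+CD45- cells. Of the 10 hepatocyte markers, 6 were called lower in Prom1+CD49f+CD45- than in Prom1-CD49f+CD45- cells, where 12.7% of all compared genes were. The other calls were 2 higher, where 15.5% were, and the median log2 ratio was -1.57. The 6 mesothelial markers summed to 221 in Prom1+CD49f+CD45- cells, 511 in Prom1-CD49f+CD45- cells, 13.7 in the Prom1+CD49f+CD45+ labelled library and 146 in presorted cells, with Wt1 at 0 in the Prom1+CD49f+CD45+ labelled library. Gpm6a, at 217, made up most of the mesothelial sum of Prom1+CD49f+CD45- cells. Set against presorted cells, that population had 5 of the 6 mesothelial markers called lower and 1 higher (median log2 ratio -4.38). Set against Prom1-CD49f+CD45- cells, it had 5 lower and 0 higher (median -6.00). In bulk RNA of this kind, fewer cells of a type and less RNA per cell cannot be told apart.

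The junction and polarity genes were at their highest in Prom1+CD49f+CD45- cells. Of the 35 genes, 29 had their highest level of the 4 libraries there, where 24.9% of all compared genes did, and 23 had their lowest level in the Prom1+CD49f+CD45+ labelled library, where 22.6% of all compared genes did. These counts were made with TMM scaling alone and include near ties, such as Ctnna1 at 564 against 559 in the Prom1+CD49f+CD45+ labelled library. Summed over the 35 genes, the level was 6506 scaled CPM in Prom1+CD49f+CD45- cells, 2119 in Prom1-CD49f+CD45- cells, 2254 in the Prom1+CD49f+CD45+ labelled library and 3123 in presorted cells. A few genes weighed heavily in these sums, and without Dsg2 the sum in Prom1+CD49f+CD45- cells was 4822. The median level of the 35 was 112 in Prom1+CD49f+CD45- cells, 23.9 in Prom1-CD49f+CD45- cells, 7.13 in the Prom1+CD49f+CD45+ labelled library and 39.7 in presorted cells. Of the 35, 19 were called higher in Prom1+CD49f+CD45- cells against each of the 3 other libraries, which held for 4.84% of all compared genes. The 19 were Ocln, Cgn, Marveld2, Marveld3, Magi1, Pard3, Pard6b, Prkcz, Crb3, Patj, Llgl2, Dlg3, Dsp, Dsg2, Dsc2, Pkp2, Pkp3, Ppl and Evpl. Another 8 were called higher there against none of the 3 others, namely Tjp1, Pard6g, Mpp5, Scrib, Jup, Ctnna1, Nectin1 and Nectin2.

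**Figure D1:**
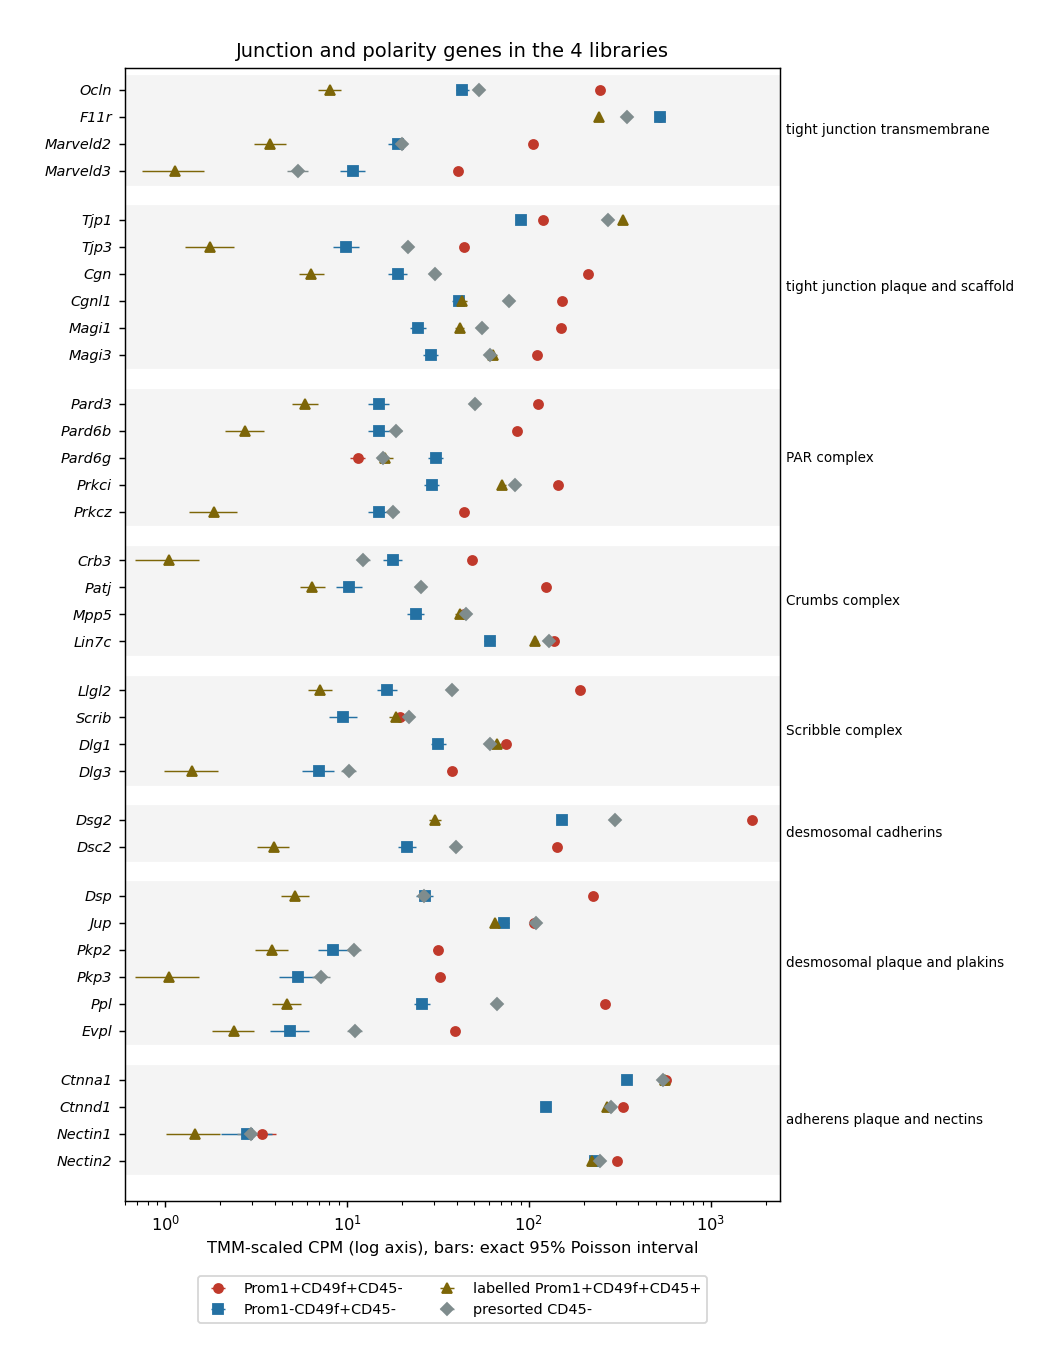
Level of each of the 35 genes in the 4 libraries, grouped by role, on a log axis of TMM-scaled CPM with exact 95% Poisson intervals as bars. Prom1+CD49f+CD45- cells (circles) hold the highest level for 29 genes, while Tjp1, F11r, Pard6g, Mpp5, Scrib and Jup have their highest level in another library.

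Among the transmembrane proteins of the tight junction, occludin and the tricellulin family stood highest in Prom1+CD49f+CD45- cells and lowest in the Prom1+CD49f+CD45+ labelled library. Ocln, which encodes occludin, was at 246 scaled CPM in Prom1+CD49f+CD45- cells, 43.0 in Prom1-CD49f+CD45- cells, 8.02 in the Prom1+CD49f+CD45+ labelled library and 52.9 in presorted cells. Its level in Prom1+CD49f+CD45- cells was 5.73-fold (5.27 to 6.23) that in Prom1-CD49f+CD45- cells and 4.65-fold (4.45 to 4.87) that in presorted cells. Marveld2, which encodes tricellulin, the protein of contacts where 3 cells meet, was at 106 in Prom1+CD49f+CD45- cells, 19.0 in Prom1-CD49f+CD45- cells, 3.79 in the Prom1+CD49f+CD45+ labelled library and 19.9 in presorted cells. The intervals of Prom1-CD49f+CD45- cells (16.8 to 21.4) and presorted cells (18.6 to 21.3) overlapped for this gene. Marveld3, a related four-span protein, was at 40.6 in Prom1+CD49f+CD45- cells, 10.7 in Prom1-CD49f+CD45- cells, 1.13 in the Prom1+CD49f+CD45+ labelled library and 5.36 in presorted cells, and at 7.58-fold (6.60 to 8.73) it had the second highest ratio of Prom1+CD49f+CD45- to presorted cells in the list after Dsp.

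F11r went its own way. It encodes junctional adhesion molecule A, which endothelial cells, platelets and leukocytes also carry, and was at 524 scaled CPM in Prom1+CD49f+CD45- cells, 528 in Prom1-CD49f+CD45- cells, 241 in the Prom1+CD49f+CD45+ labelled library and 347 in presorted cells. Both CD49f+CD45- populations therefore held it at a like level, with a ratio of 0.992 (0.966 to 1.02) between them that was 0.881 with DESeq2 size factors and 1.17 with library totals, and above presorted cells by 1.51-fold (1.48 to 1.54) and 1.52-fold (1.48 to 1.56), short of the 2-fold call.

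The cytoplasmic plaque of the tight junction split into genes that followed occludin and genes that did not. Cgn encodes cingulin, an actin and microtubule binding plaque protein, and lies on chromosome 3 at 94760069 to 94786492 on the minus strand (mm10). Its level was 211 scaled CPM in Prom1+CD49f+CD45- cells, 19.0 in Prom1-CD49f+CD45- cells, 6.37 in the Prom1+CD49f+CD45+ labelled library and 30.6 in presorted cells. Cgn was thus 11.1-fold (9.83 to 12.6) higher in Prom1+CD49f+CD45- than in Prom1-CD49f+CD45- cells. Its relative Cgnl1, which encodes paracingulin, a protein of both tight and adherens junctions, was at 153 in Prom1+CD49f+CD45- cells, 41.1 in Prom1-CD49f+CD45- cells, 43.0 in the Prom1+CD49f+CD45+ labelled library and 78.0 in presorted cells, and was 3.72-fold (3.41 to 4.06) higher between the same cells.

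Tjp1 and Tjp3 encode the scaffolds ZO-1 and ZO-3, which tie transmembrane proteins to actin. Tjp3, the epithelial member of the pair, was at 44.1 scaled CPM in Prom1+CD49f+CD45- cells, 9.89 in Prom1-CD49f+CD45- cells, 1.77 in the Prom1+CD49f+CD45+ labelled library and 21.5 in presorted cells. Tjp1 (chromosome 7, 65296165 to 65527781, minus strand, mm10) was at 119 in Prom1+CD49f+CD45- cells, 90.5 in Prom1-CD49f+CD45- cells, 328 in the Prom1+CD49f+CD45+ labelled library and 272 in presorted cells, with its highest level where most of the others were lowest. It was the single gene of the 35 called lower in Prom1+CD49f+CD45- cells against presorted cells, by 2.29-fold (2.21 to 2.37), and against the Prom1+CD49f+CD45+ labelled library, by 2.76-fold (2.66 to 2.86). The call against presorted cells depended on scaling, since the ratio of 0.437 was 0.583 with library totals and 0.506 with the authors' normalized values. Endothelial cells use ZO-1 as well, and the endothelial markers were highest in the pair of libraries with the most Tjp1. In Prom1-CD49f+CD45- cells they summed to 5009 scaled CPM, against 110 in Prom1+CD49f+CD45- cells, while Tjp1 was lowest in Prom1-CD49f+CD45- cells; their part in its levels was not tested.

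Magi1 and Magi3, PDZ-domain scaffolds of tight junctions, had their highest levels in Prom1+CD49f+CD45- cells at 150 and 111 scaled CPM. Magi1 was at 24.6 in Prom1-CD49f+CD45- cells, 41.6 in the Prom1+CD49f+CD45+ labelled library and 54.9 in presorted cells. Magi3 was at 28.8 in Prom1-CD49f+CD45- cells, 63.2 in the Prom1+CD49f+CD45+ labelled library and 61.3 in presorted cells, and unlike Magi1 it was not called against presorted cells, at 1.81-fold (1.73 to 1.91). That depended on scaling, since Magi3 was called higher there with library totals and with the authors' normalized values.

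In the PAR complex, 4 of 5 genes were called higher in Prom1+CD49f+CD45- than in Prom1-CD49f+CD45- cells, and 1 was called lower. Pard3 encodes the scaffold PAR3, which places the complex at the junction, and was at 112 scaled CPM in Prom1+CD49f+CD45- cells, 14.9 in Prom1-CD49f+CD45- cells, 5.88 in the Prom1+CD49f+CD45+ labelled library and 50.3 in presorted cells. The PAR6 adaptors Pard6b and Pard6g, which link atypical protein kinase C to Cdc42, ran in opposite directions. Pard6b was at 86.5 in Prom1+CD49f+CD45- cells, 15.0 in Prom1-CD49f+CD45- cells, 2.74 in the Prom1+CD49f+CD45+ labelled library and 18.6 in presorted cells, and was 5.75-fold (5.0 to 6.63) higher in Prom1+CD49f+CD45- than in Prom1-CD49f+CD45- cells. Pard6g was at 11.4 in Prom1+CD49f+CD45- cells, 30.8 in Prom1-CD49f+CD45- cells, 16.2 in the Prom1+CD49f+CD45+ labelled library and 15.7 in presorted cells, and was 2.69-fold (2.34 to 3.09) lower in that comparison. The lower call of Pard6g was lost with library totals, where its ratio of 0.371 was 0.436, and after removal of the trend on transcript length, where it was 0.443.

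The atypical protein kinases C are the catalytic part of the same complex. Prkci was at 144 scaled CPM in Prom1+CD49f+CD45- cells, 29.2 in Prom1-CD49f+CD45- cells, 71.4 in the Prom1+CD49f+CD45+ labelled library and 83.9 in presorted cells. Prkcz was at 43.7 in Prom1+CD49f+CD45- cells, 14.9 in Prom1-CD49f+CD45- cells, 1.85 in the Prom1+CD49f+CD45+ labelled library and 17.9 in presorted cells, so the Prom1+CD49f+CD45+ labelled library held Prkci near the presorted level, 1.18-fold (1.11 to 1.24) lower, and Prkcz 9.67-fold (7.18 to 13.3) lower.

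Of the Crumbs complex, the apical membrane protein and its large scaffold moved furthest. Crb3, the gene of the epithelial Crumbs protein, was at 48.8 scaled CPM in Prom1+CD49f+CD45- cells, 17.8 in Prom1-CD49f+CD45- cells, 1.05 in the Prom1+CD49f+CD45+ labelled library and 12.3 in presorted cells. Patj, a scaffold with many PDZ domains that lies on chromosome 4 at 98395785 to 98719603 on the plus strand (mm10), was at 124 in Prom1+CD49f+CD45- cells, 10.3 in Prom1-CD49f+CD45- cells, 6.45 in the Prom1+CD49f+CD45+ labelled library and 25.5 in presorted cells. Its ratio of 12.0 (10.2 to 14.3) between Prom1+CD49f+CD45- and Prom1-CD49f+CD45- cells was the highest of the 35. Mpp5, which encodes the adaptor PALS1 that joins Crumbs to PATJ, was at 44.1 in Prom1+CD49f+CD45- cells, 23.9 in Prom1-CD49f+CD45- cells, 41.9 in the Prom1+CD49f+CD45+ labelled library and 45.1 in presorted cells, and was called in none of the comparisons. Lin7c, a small PDZ protein bound to PALS1, was at 138 in Prom1+CD49f+CD45- cells, 61.0 in Prom1-CD49f+CD45- cells, 108 in the Prom1+CD49f+CD45+ labelled library and 129 in presorted cells, and was called in 1 comparison, higher in Prom1+CD49f+CD45- than in Prom1-CD49f+CD45- cells by 2.26-fold (2.10 to 2.43). That call was lost with DESeq2 size factors, where the ratio was 2.01.

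The Scribble complex gave the same kind of split. Llgl2, the epithelial lethal giant larvae gene, was at 192 scaled CPM in Prom1+CD49f+CD45- cells, 16.7 in Prom1-CD49f+CD45- cells, 7.13 in the Prom1+CD49f+CD45+ labelled library and 37.9 in presorted cells. It was 11.5-fold (10.1 to 13.2) higher in Prom1+CD49f+CD45- than in Prom1-CD49f+CD45- cells. Scrib, the scaffold that names the complex, was at 19.6 in Prom1+CD49f+CD45- cells, 9.54 in Prom1-CD49f+CD45- cells, 18.6 in the Prom1+CD49f+CD45+ labelled library and 22.0 in presorted cells, and its ratio of 2.05 (1.70 to 2.49) in that comparison was not called. Of the discs large scaffolds, Dlg3 was at 37.6 in Prom1+CD49f+CD45- cells, 6.99 in Prom1-CD49f+CD45- cells, 1.41 in the Prom1+CD49f+CD45+ labelled library and 10.2 in presorted cells. Dlg1 was at 74.6 in Prom1+CD49f+CD45- cells, 31.8 in Prom1-CD49f+CD45- cells, 66.6 in the Prom1+CD49f+CD45+ labelled library and 61.3 in presorted cells. Dlg1 was called in 1 comparison, higher in Prom1+CD49f+CD45- than in Prom1-CD49f+CD45- cells, and that call was lost with DESeq2 size factors and with the length trend removed.

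Promoter windows are shown for 4 polarity genes with matches to the E-box CACCTG and for 2 genes without a match in the window given. In human cells the repressors ZEB1 and Snail are known to bind this E-box at epithelial polarity genes, CRB3 among them. RefSeq windows of GRCm38.p6, from 250 bases before to 50 after an annotated start, were given for 22 of the 35 genes (37 windows). CACCTG, or CAGGTG on the other strand, was in 19 of the 37 windows (51.4%), against 6640 of 32851 windows of all genes (20.2%) and 3423 of 17804 windows of compared genes (19.2%). By gene, it was in 14 of 22 (63.6%) against 6098 of 27025 (22.6%). The 22 genes had 37 windows and the 27025 genes had 32851, so the 22 had more windows a gene in which a match could fall. Overlapping windows of Crb3 and of Marveld2 share their matches, which the count by window takes more than once. The windows of the 22 genes were richer in G and C, with a median of 60.7% against 52.7% in all windows and 58.3% in those of compared genes. The grainyhead-like motif AACCGGTT, a palindrome and so the same on both strands, was in 0 of the 37 windows, against 48 of 32851 (0.146%). With a motif this rare, 37 windows would most likely hold 0 whatever the genes, so nothing is drawn from that count. A match is a description of the letters and not a measured binding site. The 150 bases before the start follow, 5′ to 3′ on the gene's strand, with capitals at each CACCTG or CAGGTG, for Crb3 (chr17:57062051-57062200, plus strand), Pard6b (chr2:168080854-168081003, plus strand), Prkcz (chr4:155361429-155361578, minus strand) and Patj (chr4:98395676-98395825, plus strand). Cgn (chr3:94786483-94786632, minus strand) and Tjp1 (chr7:65371245-65371394, minus strand) are shown as genes without a match, 1 high in Prom1+CD49f+CD45- cells and 1 low.
Crb3: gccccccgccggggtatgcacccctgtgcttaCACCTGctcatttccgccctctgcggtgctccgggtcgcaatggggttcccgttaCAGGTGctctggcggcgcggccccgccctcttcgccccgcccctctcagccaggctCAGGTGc
Pard6b: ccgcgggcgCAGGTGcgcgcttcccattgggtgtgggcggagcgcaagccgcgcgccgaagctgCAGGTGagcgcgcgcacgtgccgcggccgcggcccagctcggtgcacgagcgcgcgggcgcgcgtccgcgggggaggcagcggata
Prkcz: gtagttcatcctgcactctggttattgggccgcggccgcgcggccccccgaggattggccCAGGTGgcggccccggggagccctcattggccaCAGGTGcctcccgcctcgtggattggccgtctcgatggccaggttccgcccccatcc
Patj: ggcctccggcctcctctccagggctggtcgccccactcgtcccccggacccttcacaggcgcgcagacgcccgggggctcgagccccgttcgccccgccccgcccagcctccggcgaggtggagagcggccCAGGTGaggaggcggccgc
Cgn: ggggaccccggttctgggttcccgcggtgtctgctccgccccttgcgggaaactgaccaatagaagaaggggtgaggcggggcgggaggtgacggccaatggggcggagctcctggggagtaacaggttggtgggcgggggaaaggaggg
Tjp1: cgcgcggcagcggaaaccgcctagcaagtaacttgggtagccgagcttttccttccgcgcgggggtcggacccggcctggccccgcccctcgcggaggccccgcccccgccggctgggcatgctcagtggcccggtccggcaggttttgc
Crb3 held 3 matches in the 150 bases shown, Pard6b 2, Prkcz 2 and Patj 1. The windows shown for Cgn and Tjp1 held 0.

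Of the 35 genes, the desmosomal cadherin Dsg2 had the highest level in Prom1+CD49f+CD45- cells. Dsg2, a desmosomal cadherin found in simple epithelia, was at 1684 scaled CPM (1670 to 1698) in Prom1+CD49f+CD45- cells, 152 in Prom1-CD49f+CD45- cells, 30.5 in the Prom1+CD49f+CD45+ labelled library and 297 in presorted cells. It ranked 42nd of all compared genes by level in Prom1+CD49f+CD45- cells, and the ratio was 11.1 (10.6 to 11.5) to Prom1-CD49f+CD45- cells, 5.66 (5.56 to 5.77) to presorted cells and 55.3 (51.5 to 59.5) to the Prom1+CD49f+CD45+ labelled library. Its partner Dsc2, a desmocollin, was at 143 in Prom1+CD49f+CD45- cells, 21.3 in Prom1-CD49f+CD45- cells, 3.95 in the Prom1+CD49f+CD45+ labelled library and 39.7 in presorted cells.

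The plaque that joins these cadherins to keratin followed. Dsp encodes desmoplakin, the link to keratin filaments, and was at 226 scaled CPM in Prom1+CD49f+CD45- cells, 26.7 in Prom1-CD49f+CD45- cells, 5.20 in the Prom1+CD49f+CD45+ labelled library and 26.5 in presorted cells. Prom1-CD49f+CD45- and presorted cells did not differ in Dsp beyond counting error, at a ratio of 1.01 (0.896 to 1.13), and Prom1+CD49f+CD45- cells stood 8.45-fold (7.62 to 9.40) and 8.53-fold (8.02 to 9.08) above them. The plakophilins, armadillo proteins of the plaque, were lower in level, with Pkp2 at 31.4 in Prom1+CD49f+CD45- cells, 8.41 in Prom1-CD49f+CD45- cells, 3.87 in the Prom1+CD49f+CD45+ labelled library and 10.9 in presorted cells. Pkp3 was at 32.6 in Prom1+CD49f+CD45- cells, 5.37 in Prom1-CD49f+CD45- cells, 1.05 in the Prom1+CD49f+CD45+ labelled library and 7.18 in presorted cells. Ppl and Evpl encode periplakin and envoplakin, plakins best known from the cornified envelope of skin. Ppl was at 262 in Prom1+CD49f+CD45- cells, 25.8 in Prom1-CD49f+CD45- cells, 4.67 in the Prom1+CD49f+CD45+ labelled library and 67.1 in presorted cells, and its ratio of 56.1 (46.7 to 68.0) between Prom1+CD49f+CD45- cells and the Prom1+CD49f+CD45+ labelled library was the highest of the 35 in any comparison, with an interval that overlapped that of Dsg2. Evpl was at 39.2 in Prom1+CD49f+CD45- cells, 4.87 in Prom1-CD49f+CD45- cells, 2.38 in the Prom1+CD49f+CD45+ labelled library and 11 in presorted cells. Jup, which encodes plakoglobin, shared by desmosomes and adherens junctions and present in endothelial junctions, was at 106 in Prom1+CD49f+CD45- cells, 72.8 in Prom1-CD49f+CD45- cells, 65.5 in the Prom1+CD49f+CD45+ labelled library and 109 in presorted cells, and was called in no comparison.

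The adherens junction plaque genes and nectins gave 1 call, that of Ctnnd1 against Prom1-CD49f+CD45- cells, in the comparisons of Prom1+CD49f+CD45- cells. Ctnna1, which encodes alpha-catenin, the link to actin, was at 564 scaled CPM in Prom1+CD49f+CD45- cells, 346 in Prom1-CD49f+CD45- cells, 559 in the Prom1+CD49f+CD45+ labelled library and 549 in presorted cells. Ctnnd1, which encodes p120-catenin, a stabiliser of cadherins at the membrane, was at 328 in Prom1+CD49f+CD45- cells, 125 in Prom1-CD49f+CD45- cells, 268 in the Prom1+CD49f+CD45+ labelled library and 283 in presorted cells, and so had its lowest level in Prom1-CD49f+CD45- cells. Nectin2, an immunoglobulin-like adhesion protein, was at 305 in Prom1+CD49f+CD45- cells, 231 in Prom1-CD49f+CD45- cells, 222 in the Prom1+CD49f+CD45+ labelled library and 245 in presorted cells. Nectin1 was at 3.41 in Prom1+CD49f+CD45- cells, 2.83 in Prom1-CD49f+CD45- cells, 1.45 in the Prom1+CD49f+CD45+ labelled library and 2.97 in presorted cells, the lowest of the 35 in Prom1+CD49f+CD45- cells, with 36 to 132 counts behind each value. Its interval spanned 2-fold in both comparisons with the Prom1+CD49f+CD45+ labelled library, which was 2.05-fold (1.41 to 3.05) lower than presorted cells.

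Divided by exon length, which allows levels to be compared between genes, Dsg2 led in Prom1+CD49f+CD45- cells at 204 scaled CPM per kb, followed by F11r at 197, Ctnna1 at 87.8, Nectin2 at 87.3 and Ocln at 58.3. In Prom1-CD49f+CD45- cells F11r led at 198 per kb and Dsg2 was at 18.4. Per kb, the Prom1+CD49f+CD45+ labelled library was also led by F11r at 90.6, then Ctnna1 at 87.0, Nectin2 at 63.5 and Tjp1 at 42.0. Presorted cells had F11r at 130, Ctnna1 at 85.4, Nectin2 at 70.2, Ctnnd1 at 38.7 and Dsg2 at 36.0. Dividing by length assumes reads along the whole transcript; the series title names a 3' tag method and the protocol a stranded mRNA kit, and which one was used was not resolved.

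The 5 comparisons share libraries, so their counts are given one by one. Between Prom1+CD49f+CD45- and Prom1-CD49f+CD45- cells, which separates CD49f+CD45- cells by surface Prom1, 26 of the 35 genes were higher, where 15.5% of all compared genes were, and 1 was lower (Pard6g), where 12.7% were. The median log2 ratio was 1.95 over the 35 and 0.33 over all compared genes. By role, all of the 5 PAR genes were called (4 higher), both desmosomal cadherins were higher, 5 of 6 desmosomal plaque and plakin genes were higher, and 1 of 4 adherens plaque and nectin genes was (Ctnnd1). The cholangiocyte markers went the same way, 6 of 10 higher with a median log2 ratio of 1.28, and all 10 endothelial markers were lower with a median of -5.65. Their part in the result was not tested. Over 14583 genes the log2 ratio went up with exon length (Spearman 0.31, a description across genes of the same libraries, which are not independent replicates), and over the 35 genes it was 0.24. Removing that trend gave a median of 2.14 over the 35, and 25 were called higher.

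Against the presorted input, Prom1+CD49f+CD45- cells had 19 genes higher, where 27.6% of all compared genes were, and 1 lower (Tjp1), where 15.6% were. The median log2 ratio was 1.29 over the 35 and 0.18 over all compared genes. The 15 genes not called included Tjp3 at 2.05-fold (1.89 to 2.22), Cgnl1 at 1.96-fold (1.88 to 2.05) and Prkci at 1.72-fold (1.64 to 1.79), close to the threshold, and Ctnna1 at 1.03-fold (1.01 to 1.05). All 10 cholangiocyte markers were higher (median log2 ratio 2.65), above the junction genes' median. All 10 endothelial markers were lower, and so were 9 of 10 hepatocyte markers; their part in the junction genes' ratios was not tested.

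**Figure D2:**
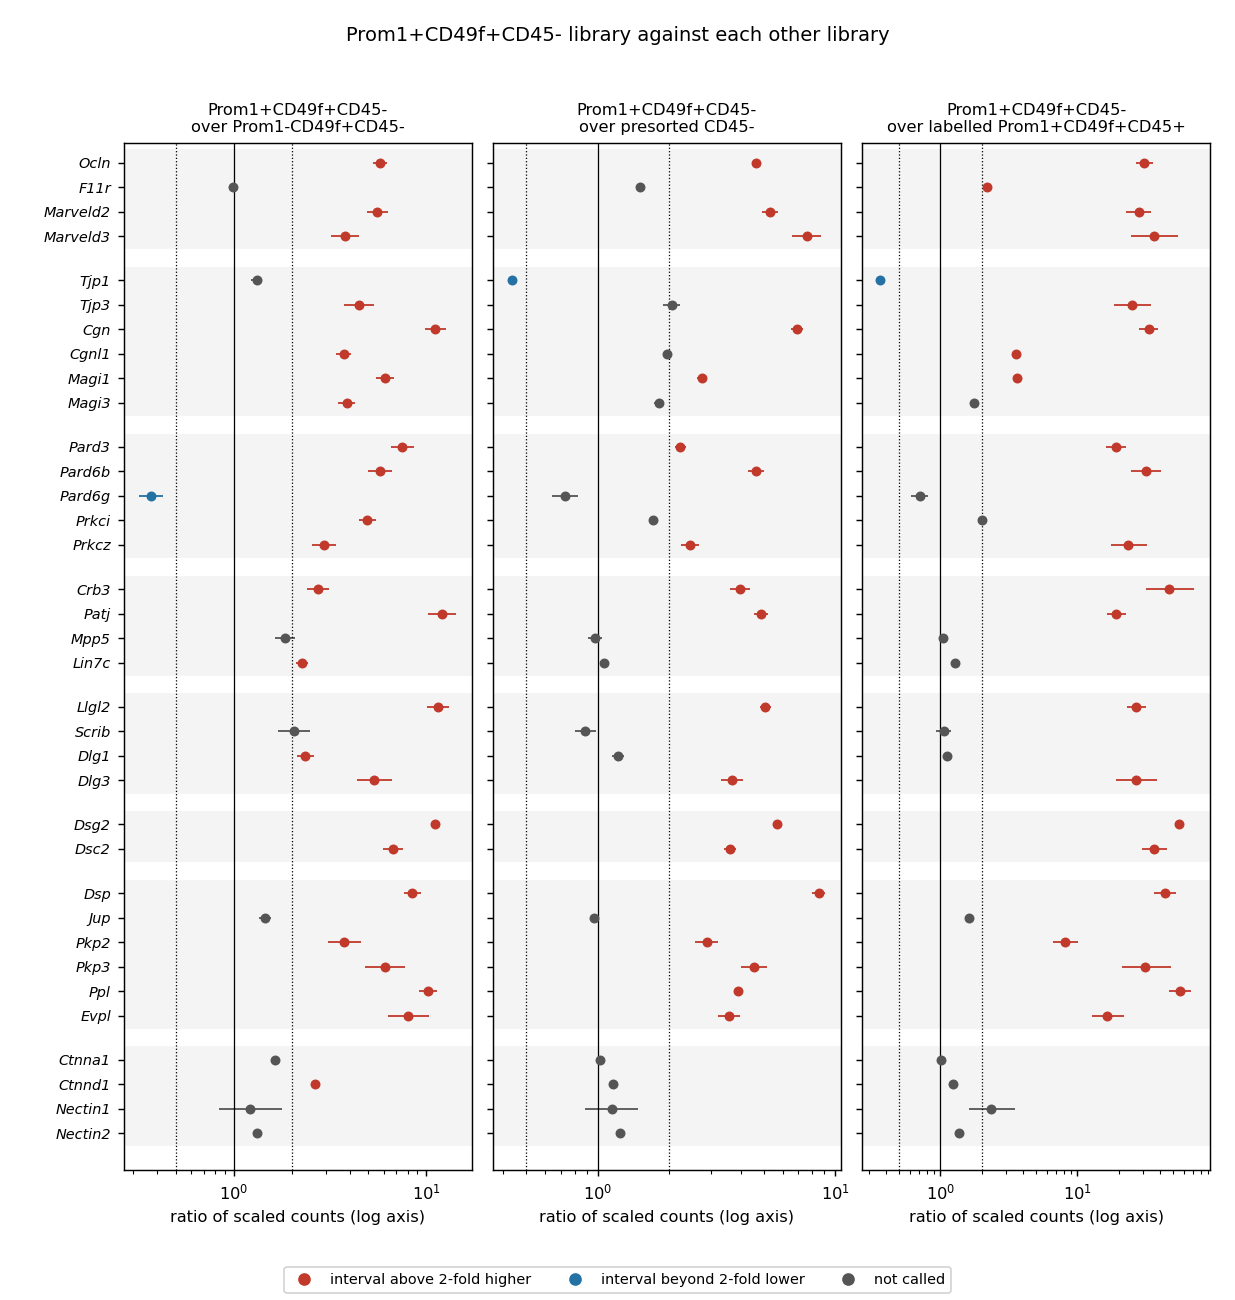
Ratio of scaled counts of Prom1+CD49f+CD45- cells over each other library for the 35 genes, with exact 95% conditional binomial intervals on a log axis; dotted lines mark 2-fold. Points called higher number 26, 19 and 22 from left to right, and Tjp1 and Pard6g are the genes called lower.

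Few genes were called between Prom1-CD49f+CD45- cells and presorted cells. In Prom1-CD49f+CD45- cells 0 of the 35 genes were higher, where 9.77% of all compared genes were, and 6 were lower, where 14.1% were, a share close to that of the list. The 6 were Tjp1 by 3.01-fold (2.84 to 3.19), Pard3 by 3.38-fold (2.93 to 3.91), Prkci by 2.88-fold (2.60 to 3.19), Patj by 2.47-fold (2.08 to 2.96), Ppl by 2.60-fold (2.33 to 2.91) and Ctnnd1 by 2.27-fold (2.16 to 2.39). The calls of Patj and Ctnnd1 were lost with library totals, with DESeq2 size factors and with the authors' normalized values. The median log2 ratio was -0.90 over the 35 and 0.07 over all compared genes, and the whole interval lay below 1 for 28 of the 35 and above 1 for 4, against 7534 and 6833 of the 21640 compared genes. Cholangiocyte markers ran the other way in these cells, with 6 of 10 higher than in presorted cells, 0 lower and a median log2 ratio of 1.38. Marveld3, at 10.7 scaled CPM in Prom1-CD49f+CD45- cells against 5.36 in presorted cells, had a ratio of 2.0 (1.62 to 2.47), and Crb3 had a ratio of 1.45 (1.24 to 1.68). With F11r and Pard6g these made up the 4 genes whose whole interval lay above 1.

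Of the 5 comparisons, this one had the strongest relation between the 35 genes' ratios and their transcript length. Their log2 ratios and exon lengths had a Spearman correlation of -0.62 (35 genes of the same pair of libraries, a description), and over 14579 compared genes it was -0.31. The 35 genes are long, with a median exon length of 6021 bases against 3422 over compared genes. With the trend removed the median of the 35 was -0.61 and 3 of the 6 lower calls were lost (Patj, Ppl and Ctnnd1), with 3083 of 21358 compared genes lower in that setting. Prom1-CD49f+CD45- cells also had the fewest genes with at least 10 counts (15314, against 16470 in presorted cells).

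The Prom1+CD49f+CD45+ labelled library held most of the list at low levels. Against presorted cells 0 of the 35 genes were higher, where 23.8% of all compared genes were, and 19 were lower, where 12.1% were, with a median log2 ratio of -1.98 against 0.10 over all compared genes. Ppl was 14.4-fold (11.9 to 17.4) lower, Tjp3 12.1-fold (8.97 to 16.8), Crb3 11.8-fold (7.93 to 18.2) and Dsc2 10.1-fold (8.20 to 12.5). Crb3 and Pkp3, with 26 counts each, were below the level that 95% of 1509 chemosensory receptor genes, which liver should lack, stayed under in that library (1.07 scaled CPM), so their values there are at background. The other 16 genes were not called, and among them Tjp1 at 1.21-fold (1.17 to 1.24), Magi3 at 1.03-fold (0.969 to 1.10), Ctnna1 at 1.02-fold (0.997 to 1.04), Dlg1 at 1.09-fold (1.02 to 1.15) and Pard6g at 1.03-fold (0.910 to 1.17) were at or above the presorted level. All 10 cholangiocyte markers and all 10 hepatocyte markers were lower in this library, and no endothelial marker was called, with a median log2 ratio of 0.43; their part was not tested.

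Set against that library, Prom1+CD49f+CD45- cells had 22 genes higher, where 12.5% of all compared genes were, and 1 lower (Tjp1), where 13.1% were. The median log2 ratio was 4.04 over the 35 and -0.18 over all compared genes. All 4 transmembrane tight junction genes were higher, with F11r at 2.17-fold (2.11 to 2.24) and Marveld3 at 36.0-fold (24.8 to 54.3). The size of the Marveld3 ratio rests on 28 counts (1.13 scaled CPM) in the Prom1+CD49f+CD45+ labelled library, near the background level there (1.07). The call of F11r was lost with the authors' normalized values. No adherens plaque gene or nectin was called, and neither were Mpp5, Lin7c, Scrib, Dlg1, Magi3 and Jup.

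**Figure D3:**
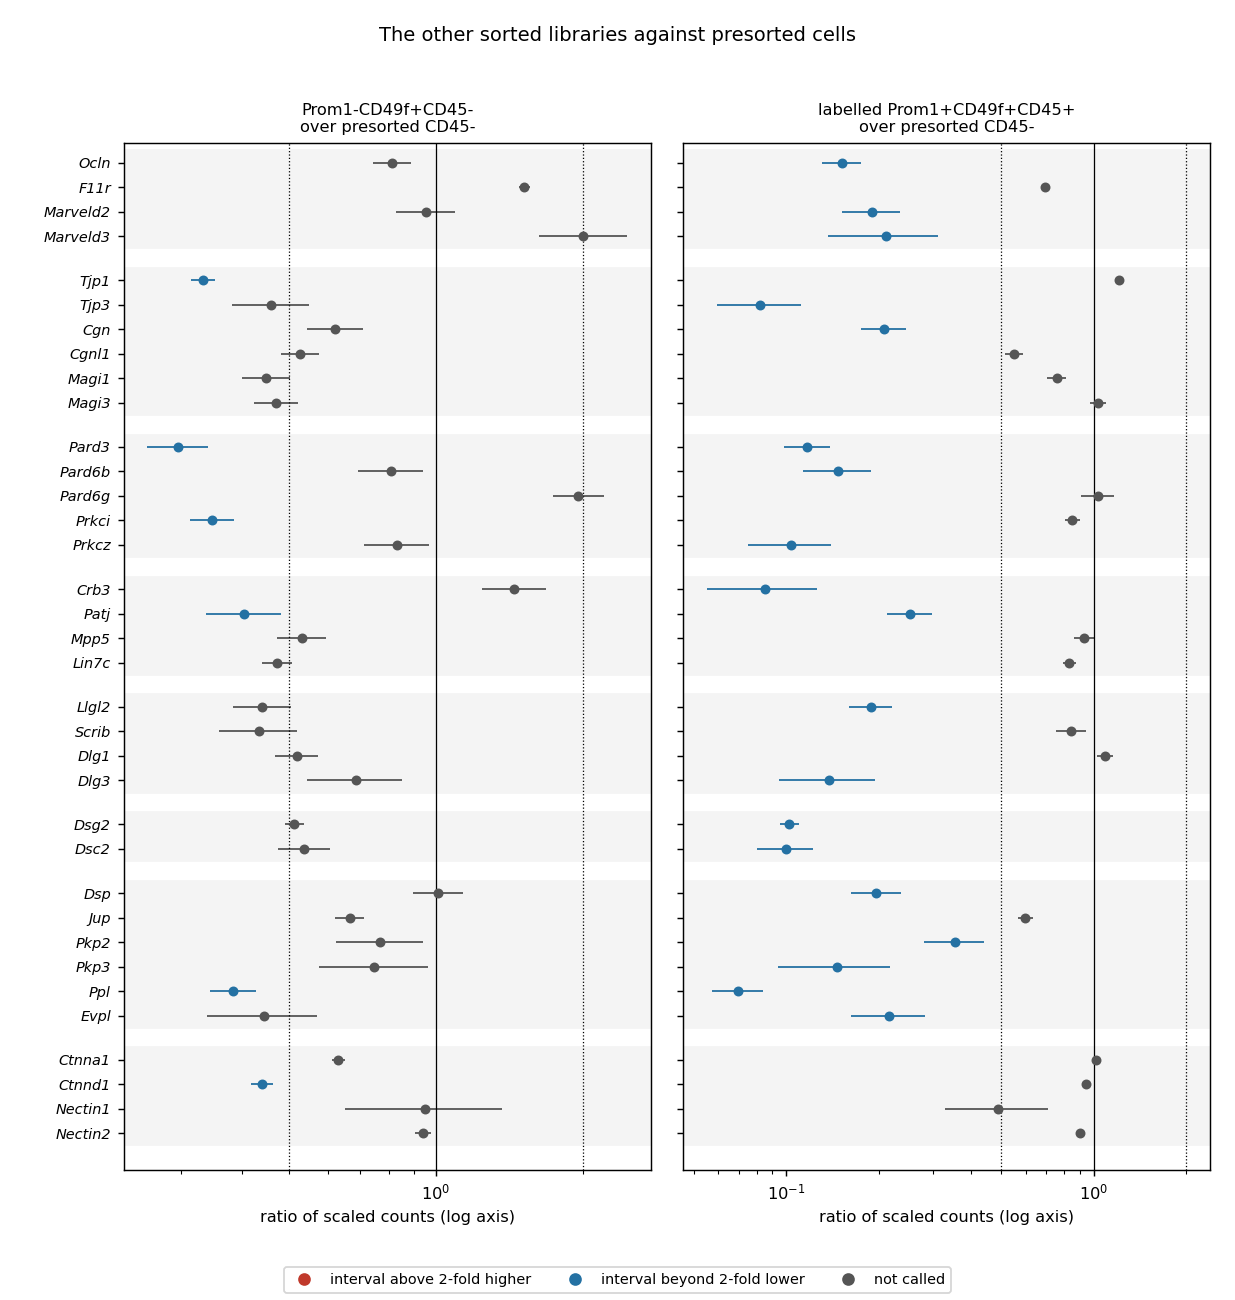
Ratio of scaled counts of Prom1-CD49f+CD45- cells and of the Prom1+CD49f+CD45+ labelled library over presorted CD45- cells for the 35 genes, with exact 95% conditional binomial intervals on a log axis; dotted lines mark 2-fold. No gene is called higher in either, and 6 and 19 genes are called lower.

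**Figure D4:**
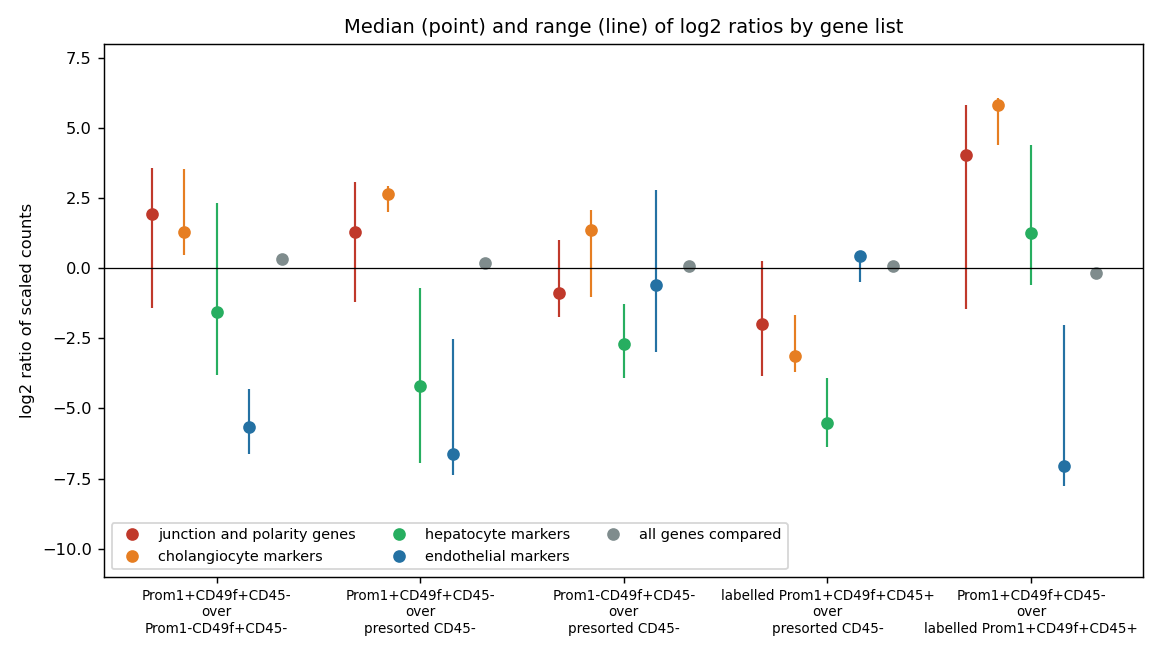
Median (point) and range (line) of the log2 ratio for the junction and polarity genes and for cholangiocyte, hepatocyte and endothelial markers in each of the 5 comparisons; the grey point is the median of all compared genes. Junction genes and cholangiocyte markers lie on the same side of 0 except in Prom1-CD49f+CD45- over presorted cells, where their medians are -0.90 and 1.38.

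Related genes were also set against each other within a library, a measure that no scaling between libraries affects; the 11 pairs were chosen after their values were seen. Pard6b had 7.56 counts for each Pard6g count in Prom1+CD49f+CD45- cells, 0.489 in Prom1-CD49f+CD45- cells, 0.169 in the Prom1+CD49f+CD45+ labelled library and 1.18 in presorted cells. Between Prom1+CD49f+CD45- and Prom1-CD49f+CD45- cells that ratio differed 15.5-fold (approximate 95% counting interval 12.7 to 18.8). Tjp3 over Tjp1 was 0.371 in Prom1+CD49f+CD45- cells, 0.109 in Prom1-CD49f+CD45- cells, 0.00541 in the Prom1+CD49f+CD45+ labelled library and 0.0791 in presorted cells. It differed 68.6-fold (50.7 to 92.8) between Prom1+CD49f+CD45- cells and the Prom1+CD49f+CD45+ labelled library. Cgn over Cgnl1 was 1.38 in Prom1+CD49f+CD45- cells, 0.462 in Prom1-CD49f+CD45- cells, 0.148 in the Prom1+CD49f+CD45+ labelled library and 0.392 in presorted cells. Dlg3 over Dlg1 was 0.503 in Prom1+CD49f+CD45- cells, 0.220 in Prom1-CD49f+CD45- cells, 0.0212 in the Prom1+CD49f+CD45+ labelled library and 0.167 in presorted cells.

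Prkcz over Prkci did not order the libraries in this way. It was 0.304 in Prom1+CD49f+CD45- cells, 0.511 in Prom1-CD49f+CD45- cells, 0.0259 in the Prom1+CD49f+CD45+ labelled library and 0.213 in presorted cells, and so was highest in Prom1-CD49f+CD45- cells. The remaining pairs varied less between the libraries. Dsg2 over Dsc2 was 11.8 in Prom1+CD49f+CD45- cells, 7.14 in Prom1-CD49f+CD45- cells, 7.71 in the Prom1+CD49f+CD45+ labelled library and 7.49 in presorted cells. Evpl over Ppl was 0.149 in Prom1+CD49f+CD45- cells, 0.189 in Prom1-CD49f+CD45- cells, 0.509 in the Prom1+CD49f+CD45+ labelled library and 0.164 in presorted cells. Magi1 over Magi3 was 1.35 in Prom1+CD49f+CD45- cells, 0.853 in Prom1-CD49f+CD45- cells, 0.657 in the Prom1+CD49f+CD45+ labelled library and 0.895 in presorted cells. Marveld3 over Marveld2 was 0.384 in Prom1+CD49f+CD45- cells, 0.565 in Prom1-CD49f+CD45- cells, 0.298 in the Prom1+CD49f+CD45+ labelled library and 0.269 in presorted cells. Pkp3 over Pkp2 was 1.04 in Prom1+CD49f+CD45- cells, 0.639 in Prom1-CD49f+CD45- cells, 0.271 in the Prom1+CD49f+CD45+ labelled library and 0.656 in presorted cells. Nectin2 had 81.7 to 153 counts for each Nectin1 count across the 4 libraries.

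**Figure D5:**
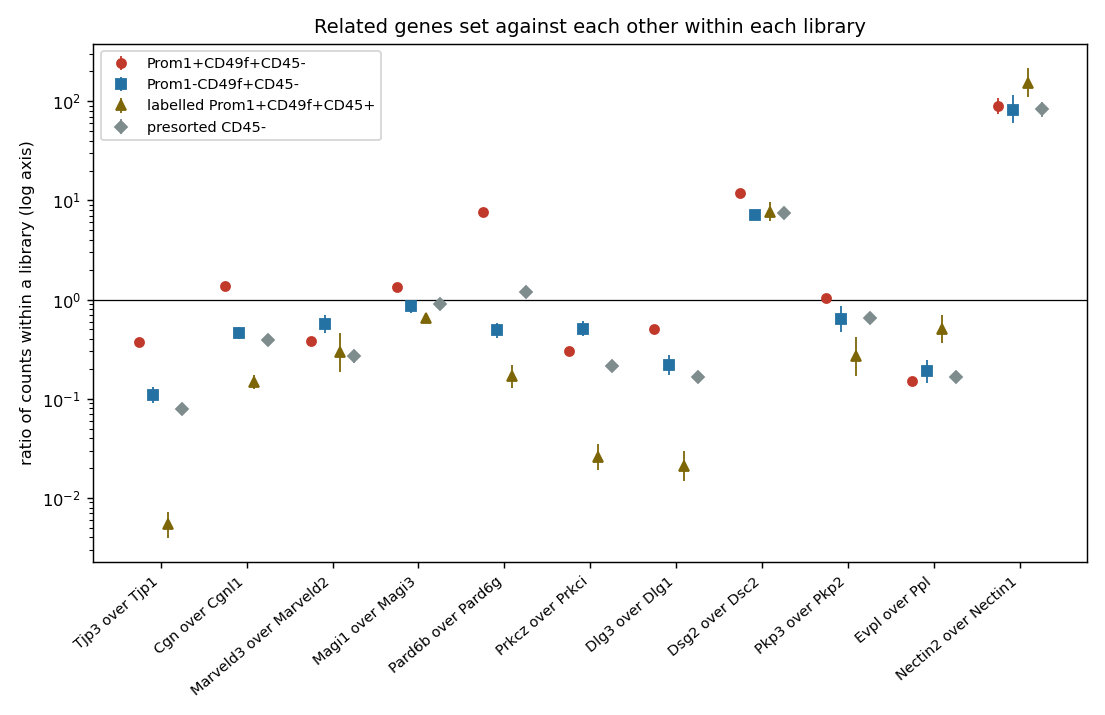
Counts of the first gene for each count of the second within each library, for 11 pairs of related genes, on a log axis with exact 95% intervals. Pard6b over Pard6g is 7.56 in Prom1+CD49f+CD45- cells, and the other libraries lie between 0.169 and 1.18, and Tjp3 over Tjp1 is lowest in the Prom1+CD49f+CD45+ labelled library.

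Another 60 junction and polarity genes outside the 35 give the surroundings, and 59 of them were compared (Lin7b had too few counts). Between Prom1+CD49f+CD45- and Prom1-CD49f+CD45- cells 23 were higher and 7 lower, with a median log2 ratio of 1.03, where 15.5% and 12.7% of all compared genes were. Against presorted cells, Prom1+CD49f+CD45- cells had 22 higher and 10 lower (median 0.65), where 27.6% and 15.6% of all compared genes were. In Prom1-CD49f+CD45- cells 1 was higher and 9 were lower than in presorted cells (median -0.09), where 9.77% and 14.1% were. The Prom1+CD49f+CD45+ labelled library had 8 higher and 10 lower against presorted cells (median 0.08), where 23.8% and 12.1% were. The background level was 1.07 scaled CPM in the Prom1+CD49f+CD45+ labelled library and 0.045 in presorted cells. With higher calls kept only above background, 2564 of the 21640 compared genes were higher, in place of 5154. Of the 60, Crb1 was at 1.01 in that library and 0.0225 in presorted cells, and Dsg3 at 1.37 and 0. Against the Prom1+CD49f+CD45+ labelled library, Prom1+CD49f+CD45- cells had 19 higher and 12 lower (median 0.28), where 12.5% and 13.1% were. The genes described in the next paragraphs were called, but some genes with larger ratios are not among them. Dsg1c, a desmosomal cadherin gene, was at 13.9 scaled CPM in Prom1+CD49f+CD45- cells, 0.777 in Prom1-CD49f+CD45- cells and 1.31 in presorted cells. Dsg1a was at 3.27 in Prom1+CD49f+CD45- cells and 0.158 in presorted cells, and Dsg1b at 6.48 and 0.585.

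Cxadr, Lsr, Nectin4, Ctnnd2 and Perp were called higher in Prom1+CD49f+CD45- cells than in Prom1-CD49f+CD45- cells and than in the Prom1+CD49f+CD45+ labelled library. Cxadr, the coxsackie and adenovirus receptor of epithelial tight junctions, was at 620 scaled CPM in Prom1+CD49f+CD45- cells, 97.6 in Prom1-CD49f+CD45- cells, 13.1 in the Prom1+CD49f+CD45+ labelled library and 153 in presorted cells. Lsr, which encodes angulin-1 of tricellular contacts, was at 251 in Prom1+CD49f+CD45- cells, 101 in Prom1-CD49f+CD45- cells, 5.56 in the Prom1+CD49f+CD45+ labelled library and 140 in presorted cells. Nectin4 was at 34.2 in Prom1+CD49f+CD45- cells, 4.38 in Prom1-CD49f+CD45- cells, 0.443 in the Prom1+CD49f+CD45+ labelled library and 3.78 in presorted cells. Its value in the Prom1+CD49f+CD45+ labelled library was below the background level there (1.07). Ctnnd2, a relative of p120-catenin, was at 18.7 in Prom1+CD49f+CD45- cells, 2.26 in Prom1-CD49f+CD45- cells, 2.98 in the Prom1+CD49f+CD45+ labelled library and 2.09 in presorted cells. Perp, a desmosome-associated membrane protein, was at 127 in Prom1+CD49f+CD45- cells, 46.5 in Prom1-CD49f+CD45- cells, 4.47 in the Prom1+CD49f+CD45+ labelled library and 80.9 in presorted cells.

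Esam, Jam2, Jam3 and Rab13 were called lower in Prom1+CD49f+CD45- cells than in each of the 3 other libraries. Esam, the endothelial cell adhesion molecule, was at 5.89 scaled CPM in Prom1+CD49f+CD45- cells, 750 in Prom1-CD49f+CD45- cells, 814 in the Prom1+CD49f+CD45+ labelled library and 634 in presorted cells. Jam2 and Jam3 encode junctional adhesion molecules of endothelium. Jam2 was at 10.8 in Prom1+CD49f+CD45- cells, 838 in Prom1-CD49f+CD45- cells, 1125 in the Prom1+CD49f+CD45+ labelled library and 893 in presorted cells. Jam3 was at 0.554 in Prom1+CD49f+CD45- cells, below the background level there (0.817). It was at 27.2 in Prom1-CD49f+CD45- cells, 28.5 in the Prom1+CD49f+CD45+ labelled library and 16.8 in presorted cells. Rab13, a small GTPase of junction traffic, was at 17.2 in Prom1+CD49f+CD45- cells, 73.6 in Prom1-CD49f+CD45- cells, 53.0 in the Prom1+CD49f+CD45+ labelled library and 38.3 in presorted cells.

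Tiam1, Vcl, Ctnna3 and Ildr2 were called in other combinations of the comparisons. Tiam1, a Rac activator, was at 0.496 in Prom1+CD49f+CD45- cells, below the background level there (0.817). It was at 0.777 in Prom1-CD49f+CD45- cells, 7.09 in the Prom1+CD49f+CD45+ labelled library and 4.28 in presorted cells. Vcl, which encodes vinculin, was at 50.1 in Prom1+CD49f+CD45- cells, 23.5 in Prom1-CD49f+CD45- cells, 153 in the Prom1+CD49f+CD45+ labelled library and 124 in presorted cells, and was 5.29-fold lower in Prom1-CD49f+CD45- cells than in the presorted input; Arhgef2 and Mark2 were also among the 9 genes lower there. Ctnna3 was at 1.2 in Prom1+CD49f+CD45- cells, 0.989 in Prom1-CD49f+CD45- cells, 4.39 in the Prom1+CD49f+CD45+ labelled library and 0.203 in presorted cells. Ildr2 was at 5.16 in Prom1+CD49f+CD45- cells, 10.4 in Prom1-CD49f+CD45- cells, 1.37 in the Prom1+CD49f+CD45+ labelled library and 17.9 in presorted cells.

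Reads of overlapping genes could not be separated, since no source used here says how counting treated strand. Of the 35 genes, 7 share exon bases with another gene. The longest shared stretch is 4482 bases of Ctnnd1 with Gm28635, which had at most 15 counts in a library. Tjp3 shares 40 bases with Apba3 and Crb3 shares 14 with Dennd1c, while Dsp, Dsg2, Ctnna1 and Nectin2 share 95 to 499.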

How the data were processed

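RNA of 4 liver cell populations was sequenced, 1 library each, from polyA-selected RNA with a number of amplification cycles that varied with input, per the labels' protocols. The authors deposited estimated counts by gene (50.5% to 60.5% of them whole in a library) and a table of CPM values with 1 added. TopHat2, Partek 3 and mm10 are named in the submitters' processing notes; the counting method, its strand setting and its annotation are not stated in the labels or file headers. The sorted populations' columns carry the numbers of the design text, and the remaining column, named only CD45, was taken as presorted cells.

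Identifiers were matched to GENCODE vM21 (40254 of 41128 with a symbol). Estimated counts were rounded and scaled by TMM over the 21640 compared genes (edgeR 4.0.16, R 4.3.3), with library totals of 30239484 (Prom1+CD49f+CD45-), 14670239 (Prom1-CD49f+CD45-), 23069940 (labelled Prom1+CD49f+CD45+) and 52293939 (presorted). Ratios have exact Clopper-Pearson intervals and levels exact Poisson intervals (scipy 1.17.1); pair contrasts have Wald intervals. The call procedure was run on simulated Poisson counts with known fold changes. Such counts hold no variation between mice or from amplification, so the run checks the computation and not the calls made here. With 1 library a group no p-value was computed. All 35 genes were described. For other junction genes a rule was set, up to 4 called genes per direction and comparison ranked by the distance of the interval from 1. The rule needed 100 counts or more in either library. It was not followed in full, and Dsg1a, Dsg1b and Dsg1c are given by level alone. Others named in the text were chosen after their values were seen. The members and lists were chosen with earlier results of these data known. Alternatives were other scalings (library totals, DESeq2 1.42.0 size factors, the authors' values), filters, call rules, a length correction and a background threshold.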

Additional observations from a re-analysis of the deposited data

How the results depend on the processing

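No paired analysis was possible because each population had 1 library, and for the same reason no replicate could be left out. No called gene of the 35 changed direction under any alternative run. Between Prom1+CD49f+CD45- and Prom1-CD49f+CD45- cells, the 26 higher calls were 16 with a 4-fold threshold, and the 1 lower call was 0 with library totals, with the 4-fold threshold and with the length trend removed. Against presorted cells, the 19 higher calls of Prom1+CD49f+CD45- cells were 10 with the 4-fold threshold, and the 1 lower call was 0 with library totals, the authors' normalized values and the 4-fold threshold. Higher calls there gained 4 with library totals (Tjp3, Cgnl1, Magi3 and Prkci) and 3 with the authors' normalized values (Tjp3, Cgnl1 and Magi3). They lost 1 (Pard3) with the length trend removed. For Prom1-CD49f+CD45- against presorted cells, the 0 higher calls were 2 with the authors' values and 1 with the ratio alone, and the 6 lower calls were 13 with the ratio alone, 0 with the 4-fold threshold and 3 with the length trend removed. Set against the Prom1+CD49f+CD45+ labelled library, the 1 lower call of Prom1+CD49f+CD45- cells was 0 with the 4-fold threshold. A stricter threshold or a ratio without its interval changes the calls by construction; for the other settings the cause was not tested. TMM without the Prom1+CD49f+CD45+ labelled library, an alternative added after seeing the data, changed no call of the 35 genes in the 3 comparisons it touches.

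Scaling moved the share of higher calls among all calls. Between Prom1+CD49f+CD45- and Prom1-CD49f+CD45- cells it was 54.8%, 66.9% with library totals, 45.5% with DESeq2 size factors; for Prom1-CD49f+CD45- against presorted cells 40.9%, 52.5%, 51.5% and, with the authors' values, 70.8%; and, between Prom1+CD49f+CD45- cells and the Prom1+CD49f+CD45+ labelled library, 48.9%, and 34.8% with the authors' values. Library totals shifted the median log2 ratio of all genes by 0.23, 0.42, 0.18, 0.34 and 0.07 in the 5 comparisons in the order of the text.

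Counts over all genes moved by over 1.5 times as follows. The 3349 higher and 2758 lower genes of Prom1+CD49f+CD45- against Prom1-CD49f+CD45- cells were 5802 and 4741 with the authors' values and 836 and 1345 at 4-fold, and higher genes were 6718 with the ratio alone. Of Prom1+CD49f+CD45- against presorted cells, 5963 higher genes were 3094 with at least 50 counts, 3723 above background and 3058 at 4-fold, where 3378 lower genes were 1960. Of Prom1-CD49f+CD45- against presorted cells, 2115 higher genes were 7113 with the authors' values, 5308 with the ratio alone, 1390 with at least 50 counts and 716 at 4-fold, where 3056 lower genes were 839. For the Prom1+CD49f+CD45+ labelled library against presorted cells, 5154 higher genes were 1788 with at least 50 counts and 2564 above background, and 2615 lower genes were 1394 at 4-fold. Of Prom1+CD49f+CD45- cells against that library, 2830 lower genes were 6058 with the authors' values, 4918 with the ratio alone and 1439 at 4-fold, where 2711 higher genes were 1544.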

Other observations

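Of 16 transcription factors and splicing regulators known to act on epithelial junction genes, 15 were compared (Grhl3 had too few counts). Of these, 9 were higher and 5 lower in Prom1+CD49f+CD45- than in Prom1-CD49f+CD45- cells, where 15.5% and 12.7% of all compared genes were. Grhl2, a grainyhead-like activator of epithelial junction genes, was at 49.0 scaled CPM in Prom1+CD49f+CD45- cells, 4.38 in Prom1-CD49f+CD45- cells, 1.29 in the Prom1+CD49f+CD45+ labelled library and 6.30 in presorted cells. Ehf, an epithelial ETS factor, was at 317 in Prom1+CD49f+CD45- cells, 41.6 in Prom1-CD49f+CD45- cells, 7.69 in the Prom1+CD49f+CD45+ labelled library and 46.2 in presorted cells. Elf3, of the same family, was at 169 in Prom1+CD49f+CD45- cells, 41.2 in Prom1-CD49f+CD45- cells, 3.34 in the Prom1+CD49f+CD45+ labelled library and 37.3 in presorted cells. Esrp1, an epithelial splicing regulator, was at 27.2 in Prom1+CD49f+CD45- cells, 4.24 in Prom1-CD49f+CD45- cells, 2.09 in the Prom1+CD49f+CD45+ labelled library and 4.41 in presorted cells.

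The 5 lower genes were the repressors Snai1, Snai2, Zeb1, Zeb2 and Twist1. Zeb1 was at 13.5 scaled CPM in Prom1+CD49f+CD45- cells, 74.9 in Prom1-CD49f+CD45- cells, 133 in the Prom1+CD49f+CD45+ labelled library and 79.5 in presorted cells. Zeb2 was at 4.81 in Prom1+CD49f+CD45- cells, 42.2 in Prom1-CD49f+CD45- cells, 132 in the Prom1+CD49f+CD45+ labelled library and 95.4 in presorted cells. Endothelial and stromal cells express these genes, and the endothelial markers were at 110 in Prom1+CD49f+CD45- cells, 5009 in Prom1-CD49f+CD45- cells, 13593 in the Prom1+CD49f+CD45+ labelled library and 10276 in presorted cells; their part in these levels was not tested. Hnf4a, a hepatocyte and epithelial factor, was at 84.1 in Prom1+CD49f+CD45- cells, 12.7 in Prom1-CD49f+CD45- cells, 5.48 in the Prom1+CD49f+CD45+ labelled library and 100.4 in presorted cells.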
